A study of Homo sapiens with 4 samples.

Results

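The loci described here are places where exactly 2 poly(A) regions shared nearly all reads and lay a moderate distance apart on the same strand. A poly(A) region is a stretch where reads from the junction of an mRNA body and its poly(A) tail pile up, so it marks where transcripts were cleaved and polyadenylated. Regions of a strand were joined into a locus when the gap between neighbours was 5000 bases or less. Kept regions had a sum of 10 or more reads in the 4 libraries and at least 5% of the reads of their locus. Loci with exactly 2 kept regions, at least 100 kept reads and 3' ends over 250 and up to 1000 bases apart were taken. There were 832 of them, which is 28.0% of the 2971 loci with 2 kept regions and 100 kept reads, 16.4% of the 5070 loci with several kept regions and 4.63% of all 17963 loci. The loci were chosen by their read counts and positions in these same libraries, so the number of kept regions, the distance and the bounds of 5% and 95% on the pooled share are not results.

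All samples were of 1 group: 4 libraries of DICER(ex5) cells, a line labelled as a DICER hypomorph that descends from the human colon cancer line HCT116. Every library therefore carries the same reduced Dicer function, and no parental or control line entered the comparison. The design text describes biological replicates, but no label names separate cultures, days or batches, so the spread and the p-values below measure the difference between these libraries, which may be technical. The libraries held 2163977 to 5713530 reads, and 6.87% to 6.99% of them fell in the 832 loci. Libraries 1 and 2 were close to each other, as were libraries 3 and 4. Pearson's r across regions was 0.97 and 0.98 within these pairs and 0.84 to 0.87 in the other 4 pairs, on log2 values of CPM (reads scaled to the library total) plus 1. Regions are not independent replicates. Positions are on hg19 as deposited. With no annotation of that build used here, the loci are named by position, the colon epithelial identity of the cells was not checked by marker genes, and no sequence is shown.

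Many genes end at more than one place. Where sites follow each other within one 3' untranslated region, use of the proximal site gives a shorter message, and use of the distal site adds sequence that can hold binding sites for microRNAs and RNA-binding proteins. Dicer produces most mature microRNAs. A region may also not be a true end, since the oligo(dT) primer can bind A-rich sequence within a transcript, and neighbouring genes on one strand can end close together. Which of these applies at a given locus was not tested.

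The quantity followed is the distal share, the percentage of a locus's kept reads that fell in the downstream region. In bulk RNA, more cells using an end and more use per cell cannot be told apart.

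The distal end was the major one at most of these loci, and lopsided use was more common than even use. The median distal share was 64.1%, 63.9%, 65.4% and 64.8% in libraries 1 to 4, with a mean of 64.5% ± 0.703 (SD, n = 4). The distal region took over 50% of the pooled reads at 505 loci (60.7%). It did so in all 4 libraries at 431 loci, the proximal region led in all 4 at 266, and 135 loci crossed or touched 50% in some library. The middle 50% of loci spanned pooled shares of 31.1% to 84.9%. The stronger of the 2 regions, whichever it was, took a median of 79.8% of the pooled reads.

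The distribution had a high end, a low end and a shallow floor between them. The pooled distal share was 80% or more at 278 loci (33.4%), from 60% to under 80% at 164 (19.7%), from 40% to under 60% at 123 (14.8%), from 20% to under 40% at 131 (15.7%) and under 20% at 136 (16.3%). In single libraries, 32.8% to 34.5% of loci lay at 80% or more, 12.9% to 14.4% lay from 40% to under 60%, and 15.9% to 17.7% lay under 20%. The upper class was the largest in every library, and the class from 40% to under 60% was the smallest in libraries 1, 2 and 3. In steps of 5 points, the highest step, from 90% to 95%, held 128 loci and the lowest, from 5% to 10%, held 56, while each of the 6 steps between 35% and 65% held 28 to 33.

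**Figure D1:**
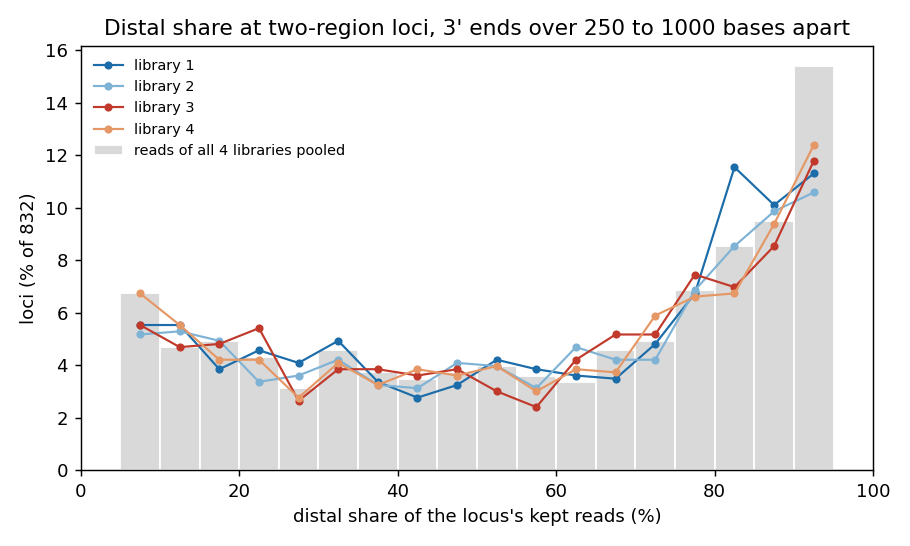
Distribution of the distal share in steps of 5 percentage points (x axis, percent of kept reads) as a percentage of the 832 loci (y axis). Grey bars give the pooled reads and lines the single libraries. The bars and the lines of libraries 2, 3 and 4 are highest at 90% to 95%, the line of library 1 is highest at 80% to 85%, and all are low between 25% and 65%. The member rule bounds the pooled share at 5% and 95%, and loci outside these bounds in a single library are not drawn.

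The rule cuts both ends of this distribution, and more loci lie just beyond the cut. Where the weaker region held 5% to under 6% of the locus reads, 22 loci had a weak proximal region and 15 a weak distal one. Just outside, where it held 4% to under 5%, there were 49 and 18. In single libraries the share left the range of 5% to under 95% at 21, 58, 59 and 52 loci in libraries 1 to 4. Library 2, the one with fewest reads, had 4 loci at 0% and 9 at 100%. The limits on distance and reads also have neighbours. The 19 loci with ends up to 10 bases farther apart than 250 had a median pooled share of 67.4%, and the 28 at 250 or less than 10 bases below it had 63.1%. The 9 loci at 1000 or less than 10 bases below it had 73.8%, and the 9 up to 10 bases beyond it had 67.8%. The 21 loci with 100 kept reads or less than 10 more had 44.8%, and the 15 with up to 10 fewer than 100 had 52.7%.

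Single loci show what sits inside and outside the distance limits. At the minus-strand locus on chromosome 1 (95362500 to 95362789), with ends 1 base beyond 250, the distal share was 31.7%, 21.2%, 41.0% and 37.4% in libraries 1 to 4. At the plus-strand locus on chromosome 17 (81052562 to 81052877), at the same distance, it was 60.4%, 65.0%, 75.4% and 71.6%. At both, libraries 3 and 4 lay above libraries 1 and 2. At 250 bases, and so not among the 832, a minus-strand locus on chromosome 12 (57057116 to 57057403) had 86.2%, 96.6%, 47.5% and 49.2%, and one of the same strand on chromosome 8 (66514670 to 66514941) had 93.4%, 85.5%, 96.8% and 95.0%. At the other limit, a plus-strand locus on chromosome 6 (117869946 to 117870969, 1000 bases) had 92.9%, 92.9%, 92.9% and 95.7%. A minus-strand one on chromosome 2 (190635034 to 190636043, 993 bases) had 12.0%, 8.41%, 9.47% and 7.32%. Beyond the limit, the minus-strand locus at 1001 bases on chromosome 1 (201433612 to 201434630) had 8.98%, 7.59%, 9.64% and 6.65%, and that at 1002 bases on chromosome 14 (53323978 to 53325008) had 75.3%, 69.6%, 90.9% and 87.3%. Strong and weak distal use, and tight and wide spread, thus occurred on either side of the limits.

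The distal share was compared with that of 2-region loci whose ends were closer or farther apart. Loci with ends up to 250 bases apart (807) had median shares of 60.5%, 58.9%, 58.1% and 60.8% in libraries 1 to 4. The 832 loci exceeded these by 3.59, 5.04, 7.31 and 3.97 percentage points, a mean of 4.98 ± 1.67 (SD, n = 4). Loci with ends over 1000 bases apart (1332) had 57.7%, 56.1%, 57.5% and 57.4%, and the 832 loci exceeded these by 6.38, 7.79, 7.91 and 7.39 points, a mean of 7.37 ± 0.693 (SD, n = 4). Each difference was positive in all 4 libraries. The exact sign-flip permutation test over libraries gave p = 0.13 for both (two-sided), the smallest value that 4 libraries allow, so neither can pass 0.05. The libraries read the same loci, and the spread over loci does not enter this test. The differences were not alike at all read numbers. With 100 to under 300 kept reads the mean of the library medians was 51.5%, below the 55.1% for closer ends and the 53.4% for wider ends. With 300 to under 1000 reads it was 66.2%, against 67.0% and 61.7%. With 1000 or more reads it was 74.9%, against 59.7% and 62.5%. The difference from closer ends fell to 1.51 points (exact permutation p = 0.375, two-sided) when only loci with exactly 2 regions in the whole table were used, and the difference from wider ends became -17.0 points when regions were joined within 1000 bases, which left 90 loci with ends over 1000 bases apart.

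Within the range of distances chosen, the distal share followed no steady course with distance. The mean of the library medians was 66.0% ± 1.45 up to 400 bases (271 loci), 62.4% ± 0.980 over 400 and up to 550 (171 loci) and 68.0% ± 1.05 up to 700 (144 loci). It was 59.4% ± 1.96 up to 850 (136 loci) and 63.0% ± 1.90 up to 1000 (110 loci, SD, n = 4 for each). The SDs are over libraries that read the same loci, and differences between these classes were not tested. The median distance was 528.5 bases. Loci at 80% or more made up 32.1% to 35.7% of every class, and loci from 40% to under 60% made up 12.5% to 15.9%.

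The median distal share was higher at well-read loci in every library. At the 217 loci with 100 to under 300 kept reads the median share was 51.4%, 50.0%, 54.5% and 50.0% in libraries 1 to 4. It was 65.3%, 64.2%, 67.8% and 67.6% at the 320 loci with 300 to under 1000 reads. It was 75.7%, 73.7%, 75.2% and 75.5% at the 196 loci with 1000 to under 3000 reads. At the 99 loci with 3000 or more it was 76.6%, 75.8%, 74.2% and 73.6%. In every library the medians of the upper 2 classes were above those of the lower 2. Single loci overlapped widely. With 300 to under 1000 reads 38.4% of loci had a pooled share of 80% or more, and with 3000 or more reads 18.2% had one under 20%. Loci with 1000 or more reads exceeded those with under 300 by 23.5 ± 2.37 points (SD, n = 4; positive in 4 of 4 libraries, exact sign-flip permutation p = 0.13, two-sided, the smallest possible).

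The same contrast was smaller at the other 2-region loci. It was 4.57 ± 1.83 points with ends up to 250 bases apart and 9.15 ± 2.31 points with ends over 1000 bases apart (SD, n = 4). The contrast at the 832 loci was larger than these by 18.9 ± 2.48 and 14.3 ± 3.98 points, in 4 of 4 libraries each (SD, n = 4; exact sign-flip permutation p = 0.13 for both, two-sided). No region in the table had fewer than 11 reads in the library where it was highest, and the lowest pooled share of a weaker region was 9.09% at 100 to under 300 reads and 5.02% at 3000 or more. The part of this limit in the contrast was not tested.

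With a minimum of 10% of locus reads in place of 5%, 845 loci entered. Those with 1000 or more reads then exceeded those with under 300 by 15.8 ± 1.78 points, with 15.2, 18.1, 13.9 and 16.2 in libraries 1 to 4 (SD, n = 4; exact permutation p = 0.13, two-sided). At the same minimum this contrast was 2.04 ± 0.796 points for ends up to 250 bases apart and 4.80 ± 1.91 points for ends over 1000 bases apart (SD, n = 4). Set against loci with 300 to under 1000 reads instead, those with 1000 or more were higher by 8.71 ± 2.15 points at the 5% minimum and by 9.81 ± 0.681 at the 10% minimum. For ends up to 250 bases apart that difference was -7.29 ± 1.04 and -0.38 ± 1.11 points at the 2 minimums, and for ends over 1000 bases apart 0.82 ± 4.11 and 3.40 ± 2.37 points (SD, n = 4).

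**Figure D2:**
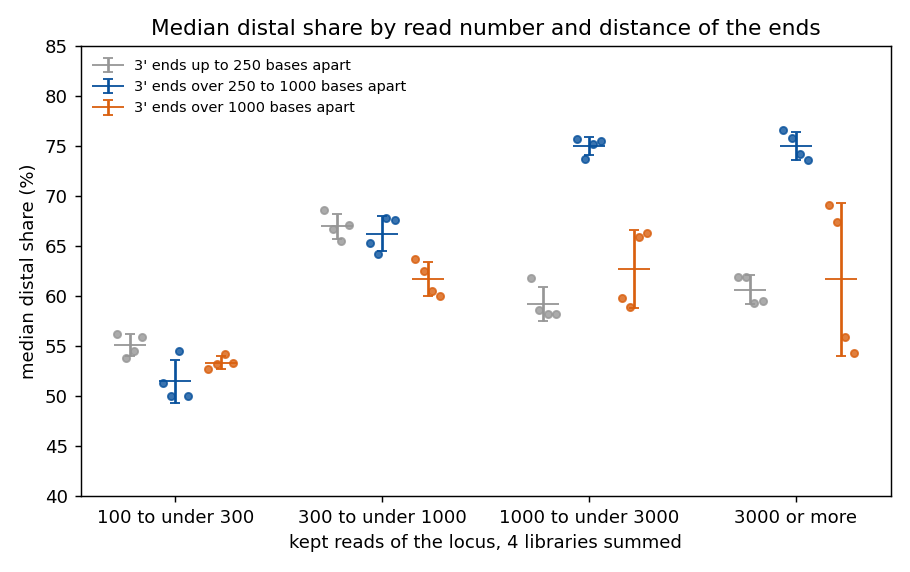
Median distal share (y axis, percent) by the kept reads of the locus, summed over 4 libraries (x axis), for 2-region loci in 3 classes of distance between the 3' ends. Points are the 4 libraries, horizontal marks their mean and error bars 1 SD; the y axis starts at 40%. With ends over 250 and up to 1000 bases apart the medians run from 51.5% at 100 to under 300 reads to 75.0% at 3000 or more.

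The shape also differed with read number. At the 217 loci with 100 to under 300 reads, 27.2% had a pooled share from 40% to under 60% and 14.3% had 80% or more. At the 295 loci with 1000 reads or more, 10.5% (31 loci) were in the middle class, 42.0% (124) at 80% or more and 19.0% (56) under 20%. In this deeper class the SD that counting alone gives had a median of 1.65 points against a class width of 20.

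How far the distal share varied between libraries was set against counting noise, the binomial SD that each library's read number gives at the pooled share. The SD over libraries had a median of 4.53 points, and counting alone gives 3.17. The observed SD was above the counting SD at 572 of the 832 loci (68.8%). An even division is not the reference here, since for the chi-square described below sampling alone puts 39.2% of values over 1. The observed SD was 10 points or more at 141 loci and 20 points or more at 23, whereas the counting SD was 10 points or more at 31. Summed over loci, the variance between libraries was 3.02 times the counting variance.

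The median observed spread was above counting noise in every class of read number. As a ratio, the gap was smallest at sparsely read loci and largest at deep ones. With 100 to under 300 reads the median SD was 8.59 points and the counting SD 7.33. With 300 to under 1000 reads they were 4.13 and 3.42, with 1000 to under 3000 reads 2.86 and 1.98, and with 3000 or more 2.39 and 1.08. The counting SD fell faster than the observed SD as reads became more numerous. After the counting variance was subtracted locus by locus, the median left an SD of 4.54, 2.15, 2.18 and 2.27 points in the 4 classes from fewest to most reads. The share of loci above their counting SD was 63.1%, 64.4%, 71.4% and 89.9%.

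**Figure D3:**
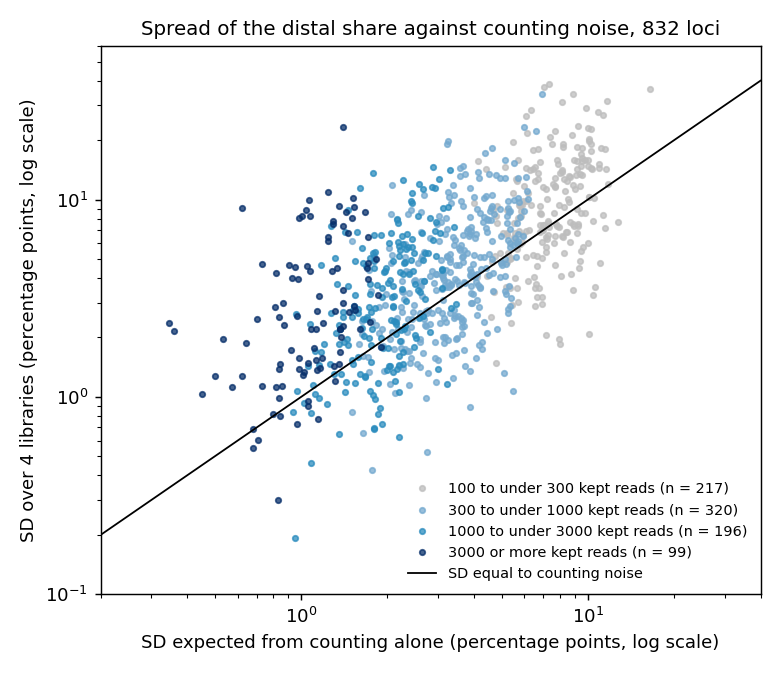
SD of the distal share over 4 libraries (y axis) against the SD expected from counting alone (x axis), both in percentage points on log scales, 1 point per locus, coloured by kept reads. The black line marks equality. Of the 832 loci, 572 lie above it, and of the 99 with 3000 or more reads 89.9% do.

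A chi-square for the difference between the 4 libraries, divided by its 3 degrees of freedom, sets the spread at each locus against sampling alone. For the same spread beyond sampling it is larger at loci with more reads, so its size does not compare spread across depths. Sampling alone gives a mean of 1, a median of 0.789 and 39.2% of values over 1. At the 713 loci with an expected count of at least 5 in every cell, the median was 1.88, the mean 5.98 and 70.0% (499 loci) were over 1. At 87 loci it was over 10. The median was 1.58 at 100 to under 300 reads, 1.43 at 300 to under 1000, 2.42 at 1000 to under 3000 and 4.88 at 3000 or more. Loci with ends up to 250 bases apart had a median of 1.87 and those with ends over 1000 bases apart 2.03. The means were 8.87 and 7.63, above the 5.98 of the 832 loci, and these differences were not tested. These values count every read as an independent molecule, and duplicates from PCR would raise them.

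Most of the excess lay between the pairs of libraries that also differed in level. For 2 libraries the chi-square has 1 degree of freedom and a median of 0.455 under sampling alone. The median over the 832 loci (those with expected counts of 5 or more) was 0.728 for the pair 1 and 2 and 0.636 for the pair 3 and 4. It was 2.09 between libraries 1 and 3, 1.40 between 1 and 4, 1.88 between 2 and 3 and 1.62 between 2 and 4. At loci with 1000 or more reads it was 0.794 and 0.642 within the pairs and 2.54 to 4.18 in the others. The mean was 1.67 and 1.32 within the pairs, and 6.68 to 9.06 in the others, where sampling alone gives 1. The pairs 1 and 2 and 3 and 4 were thus also above sampling. A difference of 10 points or more at these deep loci occurred at 11 for the pair 1 and 2 and at 0 for the pair 3 and 4, against 40 to 71 in the other pairs. Library preparation, culture and sequencing run cannot be told apart here, since no label gives them.

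**Figure D4:**
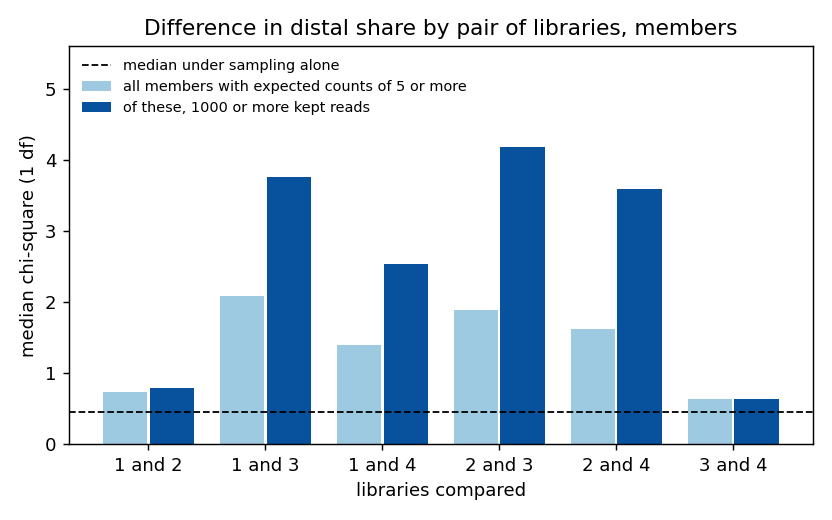
Median chi-square (1 degree of freedom) of the difference in distal share for each pair of libraries (x axis), over all loci with expected counts of 5 or more (light bars) and those with 1000 or more kept reads (dark bars). The dashed line is the median under sampling alone, 0.455. The pairs 1 and 2 and 3 and 4 lie above it, at 0.636 to 0.794, and the other bars reach 1.40 to 4.18.

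Each pair of libraries was compared at single loci with Fisher's exact test on counts thinned to the total of library 2, the smallest; Benjamini-Hochberg adjustment was over all 5070 loci with several kept regions, at a threshold of 0.05. The test compares libraries, not conditions. At least 1 of the 6 pairs differed at 194 of the 832 loci (23.3%), near the 21.6% of all 5070 loci. Without library 2, which leaves fewer pairs to compare, the number was 113 of 798 loci (14.2%). With the counts as deposited it was 302 of the 832. The share over all loci is not given for these settings. Deeper loci were called more often: 13.4% of those with 100 to under 300 reads were called and 54.5% of those with 3000 or more. The other 2-region loci showed the same rise, so it is not particular to this distance. It ran from 7.42% to 52.7% with ends up to 250 bases apart and from 11.7% to 56.6% with ends over 1000 bases apart.

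By pair, libraries 1 and 3 differed at 96 of the 832 loci, which is 11.5% against a background of 10.5%. Libraries 1 and 4 differed at 82 (9.86%; background 9.07%), libraries 2 and 3 at 138 (16.6%; background 15.2%) and libraries 2 and 4 at 132 (15.9%; background 14.6%). These shares are near the background and so are not particular to this distance. Libraries 1 and 2 differed at 4 loci (0.481%; background 0.355%). Libraries 3 and 4 differed at 0 loci by Fisher's exact test (background 0.0197%). In that pair 35 loci (4.21%) had an unadjusted p under 0.05 by the same test, and 2 were called on the counts as deposited. The share over all loci is not given for these counts.

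Called differences went both ways. From library 1 to library 3 the distal share was higher at 52 loci and lower at 44, and from library 2 to library 4 it was higher at 74 and lower at 58. The called differences had medians of 14.7 points for libraries 1 and 3, and 16.7 for libraries 2 and 4. The median difference over all 832 loci was small: 0.35 points from library 1 to library 3 and 0.21 points from library 2 to library 4. These 2 comparisons share no library, and 64 loci were called in both, 66.7% of the 96 and 48.5% of the 132. All 64 moved in the same direction. For the comparison of libraries 1 and 4 and that of libraries 2 and 3, 63 loci were called in both, 76.8% of the 82 and 45.7% of the 138. Again all 63 moved the same way. Libraries 1 and 2 were alike, as were libraries 3 and 4, so such comparisons largely repeat the same contrast and are not independent support. The overlap over all tested loci is not given. Where libraries 1 and 3 differed, the levels of the 2 ends in CPM (with 0.5 added) moved in opposite directions at 68 of the 96 loci. These loci were called on the balance of the 2 ends in the same libraries, which favours opposite movement. The share at loci not called is not given, so this count is a description.

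The 5 loci with the largest chi-square per degree of freedom were taken from the 344 with at least 100 kept reads in every library, and their differences are given as a description, since the difference chose them. At the minus-strand locus on chromosome 17 (47481407 to 47482240, 754 bases) the distal share was 96.3%, 96.6%, 53.0% and 59.8% in libraries 1 to 4. Its proximal region had 53, 19, 830 and 456 reads in libraries 1 to 4, and its distal region 1393, 538, 935 and 679. The proximal end was thus rare in libraries 1 and 2 and nearly as strong as the distal one in library 3. The minus-strand locus on chromosome 1 (151955375 to 151955668, 260 bases) had the opposite order, with 85.5%, 82.3%, 99.8% and 99.2%. The proximal reads there were 274, 110, 6 and 16.

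The other three also differed between these pairs of libraries. The plus-strand locus on chromosome 17 (39847232 to 39847917, 651 bases) had distal shares of 81.7%, 84.0%, 64.0% and 67.9%. The minus-strand locus on chromosome 17 (74730187 to 74730946, 724 bases) had 58.4%, 55.6%, 73.1% and 71.1%. The plus-strand locus on chromosome 15 (78841188 to 78841609, 359 bases) had 70.2%, 68.1%, 84.1% and 82.5%. At all 5, libraries 1 and 2 did not overlap with libraries 3 and 4, the distal share being lower in libraries 3 and 4 at 2 loci and higher at 3. Their counting SDs were 0.622 to 1.40 points and their SDs over libraries 8.22 to 23.3.

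The 5 loci with the smallest chi-square, taken from the same 344, showed no spread beyond counting. For the minus-strand locus on chromosome 1 whose distal region spans 160258351 to 160258407 (ends 696 bases apart), the distal share was 5.67%, 5.33%, 5.65% and 5.32%, with an SD of 0.192 against a counting SD of 0.950. For a plus-strand locus on chromosome 11 (57585896 to 57586660, 734 bases) it was 34.9%, 34.4%, 33.4% and 34.1%. The others lay on the plus strand of chromosome 7. There the distal share was 9.03%, 8.16%, 9.48% and 9.87% at 77586524 to 77586824. It was 4.91%, 6.45%, 5.31% and 5.52% at 27211545 to 27211843, and 31.5%, 32.2%, 33.8% and 33.8% at 108214829 to 108215303. In each of the 5 the proximal end led in every library. They were chosen for their small spread, so its size is a description.

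**Figure D5:**
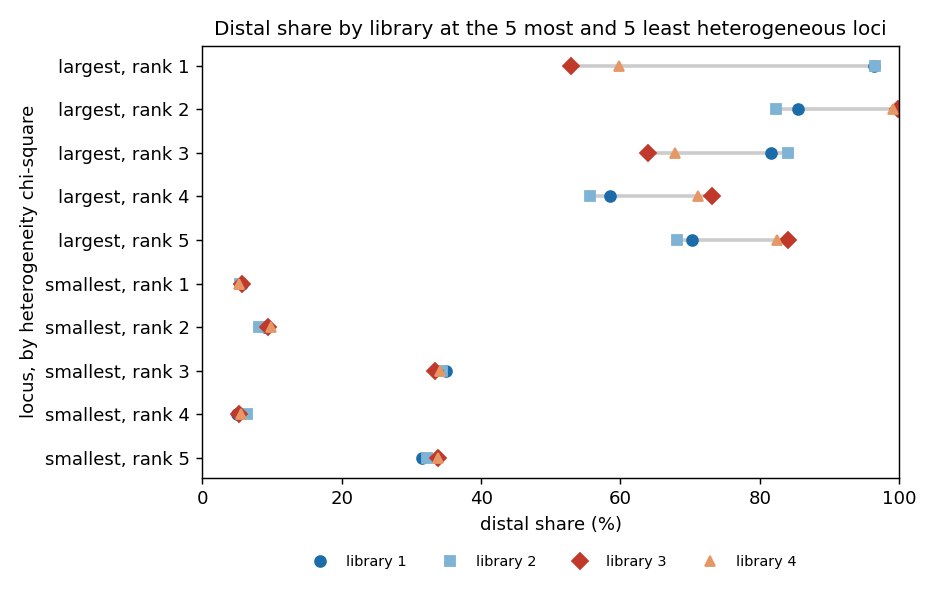
Distal share in each library (x axis, percent) at the 5 loci with the largest and the 5 with the smallest chi-square per degree of freedom (y axis, by rank), among loci with at least 100 kept reads in every library. Symbols are the libraries and grey lines the range. At the upper 5, libraries 1 and 2 lie apart from libraries 3 and 4, while at the lower 5 the symbols nearly coincide.

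The 4 loci that differed between libraries 1 and 2 were picked out after their values were seen. At the first, a minus-strand locus on chromosome 7 (148700132 to 148700566, 338 bases), the distal share was 32.0%, 44.4%, 21.0% and 22% (adjusted p = 0.000243 for libraries 1 and 2, Fisher's exact test). At a plus-strand locus on chromosome 5 (138270370 to 138270738, 309 bases) it was 56.5%, 67.2%, 47.4% and 48.0%. The minus-strand loci on chromosome 1 (20978255 to 20978732, 393 bases) and chromosome 2 (10923494 to 10924019, 454 bases) had 53.4%, 62.0%, 46.5% and 44.8%, and 13.3%, 19.7%, 3.72% and 2.77%, in that order. At each of the 4, library 2 was highest, library 1 next and libraries 3 and 4 lowest.

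The most-read loci covered the whole range of use. The plus-strand locus on chromosome 19 (13054543 to 13055314, ends 616 bases apart) had 23139 kept reads and distal shares of 92.6%, 90.5%, 96% and 94.3%, and its distal region gave 1247 CPM on average. The minus-strand locus on chromosome 6 (160199516 to 160200042, 404 bases, 18890 reads) was nearly the reverse, with 4.97%, 3.37%, 7.85% and 7.56%. A further minus-strand locus on chromosome 1 (26226561 to 26227089, 480 bases, 16868 reads) had 11.4%, 10.1%, 14.0% and 14.1%. A plus-strand one on chromosome 21 (33040947 to 33041277, 272 bases, 14997 reads) had 34.5%, 33.3%, 38.5% and 37.9%. At these 4 loci libraries 3 and 4 were both above libraries 1 and 2. The distal share of the chromosome 19 locus differed between libraries 2 and 4 with an adjusted p of 8.14e-06, and that of the chromosome 6 locus with 5.93e-09 (Fisher's exact test). Other pairs were not always called. For libraries 1 and 4 the adjusted p on chromosomes 19, 6, 1 and 21 was 0.284, 0.00584, 0.0143 and 0.569 (Fisher's exact test). The remaining one, a plus-strand locus on chromosome 2 (217070101 to 217071028, 860 bases, 16865 reads), had distal shares of 50.9%, 55.4%, 47.4% and 45.9%. There libraries 3 and 4 were below libraries 1 and 2 (adjusted p = 4.23e-07 for libraries 2 and 4 and 0.0567 for libraries 1 and 4, Fisher's exact test).

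Among the 344 loci with at least 100 kept reads in every library, that locus was also closest to an even split in mean share. The others near 50% varied by different amounts. Among the others was a plus-strand locus on chromosome 7 (38269982 to 38270279, 254 bases) with 48.8%, 38.7%, 60.2% and 54.0%, with an SD of 9.06 against a counting SD of 3.11. A plus-strand locus on chromosome 11 (68382034 to 68382809, 734 bases) had 50.6%, 40.4%, 57.2% and 57.2%, with 7.94 against 2.16. The plus-strand locus on chromosome 16 (88874911 to 88875678, 751 bases) had 51.6%, 53.1%, 50.6% and 46.8%, and the minus-strand locus on chromosome 19 (647518 to 647821, 286 bases) 49.2%, 51.1%, 50.2% and 46.9%. The SD of the latter, 1.79 points, was below its counting SD of 1.89.

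The loci with the highest and lowest mean shares are given as a description, since a share near 0% or 100% leaves little room for spread. They were taken from the 344 loci with at least 100 kept reads in every library. The highest mean share, 95.2% ± 1.43, was at a plus-strand locus on chromosome 11 (57467809 to 57468669, 825 bases), with 95.6%, 97.0%, 94.4% and 93.7% in libraries 1 to 4. The next were on chromosomes 4 (109588702 to 109589004, 94.8% ± 0.819), 9 (136271179 to 136271938, 94.7% ± 1.85), 3 (20025990 to 20026675, 94.7% ± 0.842) and X (135593767 to 135594539, 94.4% ± 1.07; SD, n = 4). At the low end, the distal share was 5.07% ± 0.300 on chromosome 7 (minus strand, 44605008 to 44605434), 5.28% ± 1.46 on chromosome 3 (plus strand, 9935504 to 9936036) and 5.36% ± 2.08 on chromosome 22 (minus strand, 43528573 to 43528909). It was 5.44% ± 0.931 on chromosome 1 (minus strand, 201349953 to 201350396) and 5.49% ± 0.192 at the steady locus described above (SD, n = 4). None of these 10 loci was called in any pair of libraries by Fisher's exact test after adjustment. They lie at the bounds the rule sets, so more extreme loci are not among them.

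The 2 ends were alike in width and the loci were divided about equally between the strands. The median region was 32 bases wide at the proximal and at the distal end. At 34 loci a region was at most 10 bases wide, 18 times at the proximal and 17 times at the distal end. These 34 had a median SD of 7.99 points with a counting SD of 4.80, against 4.38 and 3.11 at the other 798. The plus strand held 412 loci and the minus strand 420. Further regions below the 5% minimum lay in the locus at 204 of the 832, and 628 (75.5%) had exactly 2 regions in the table.

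By chromosome, chromosome 1 held the most, 90 of its 305 loci with 2 kept regions. Chromosome 10 had 42 of 111 (37.8%) and chromosome 18 had 6 of 56 (10.7%), against 28.0% over all chromosomes. An end on the opposite strand lay between the proximal and the distal end at 35 loci (4.21%), and one lay within 2000 bases downstream of the distal end at 97 (11.7%), as where converging transcripts end near each other. For the 807 loci with closer ends these shares were 2.97% and 10.7%, and for the 1332 with wider ends 6.76% and 8.03%. A wider interval has more room for an end between, so the former shares are not comparable across distances, and differences in the latter were not tested.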

How the data were processed

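The values the authors deposited are raw read counts for each poly(A) region in 4 libraries, with positions, per the file headers. Bowtie2 2.2.5 and hg19 are named in the submitters' processing notes. The sources used here do not say how regions were called or whether duplicates were removed. Tables on another build were not used for names or coordinates. Regions were joined into loci, filtered and measured as described above with Python 3.11.15, numpy 2.4.6, pandas 2.3.3 and scipy 1.17.1. Fisher's exact tests (two-sided) were run on counts thinned without replacement to 2163977 reads per library. The functions were tested on simulated data. The members and lists were chosen with earlier results of these data known. Named loci were those with most reads, the highest, lowest and most even shares, the largest and smallest chi-square, and those next to the distance limits. Those named by share or chi-square were taken from loci with at least 100 kept reads in every library. Planned gene lists, cell type markers and poly(A) signals needed an annotation or genome of the files' build and are not reported. Alternatives covered the joining distance, the minimums, region width, each library left out, a held-out library and thinning. The minimums of 1% and 2%, loci with exactly 2 regions, and the library pairs 1 and 2 and 3 and 4 alone were chosen after seeing the data.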

Additional observations from a re-analysis of the deposited data

Results flagged for a closer look

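Among 44 values in which 1 library could lie apart from the rest, 2 were flagged. The rule flags about 1 in 20 unselected values by chance. Many of these were loci picked by their share or spread, so that rate need not apply. The distal share of the locus on the minus strand of chromosome 7 (44605008 to 44605434) was 4.63% in library 3 and 5.17% to 5.26% in the others. That of the locus on the plus strand of chromosome 6 (117869946 to 117870969) was 95.7% in library 4 and 92.9% in each of the others.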

How the results depend on the processing

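The distal end led at most loci, and loci at 80% or more outnumbered those from 40% to under 60%, under every alternative run for these values. The sizes moved. Values follow in the order median distal share, loci over 50%, under 20%, from 40% to under 60% and at 80% or more, and median SD, giving those that moved by more than the spread between libraries (for the SD and the chi-square, by more than the SD of the values with a library left out). Joined within 1000 bases they were 61.2%, 57.7%, 30.8% (80% or more) and 4.96 points, and the difference from loci with wider ends turned to -17.0 points. Joined within 2000 bases they were 62.7%, 59.3%, 16.1% (40% to under 60%) and 32.0% (80% or more). A 10% minimum gave 60.7%, 59.4%, 12.7%, 17.3%, 25.0% and 5.05 points, and a minimum of 50 reads per region 61.1%, 60%, 15.0%, 17.1% and 29.0%. With 500 kept reads per locus they were 73.0%, 63.3%, 20.5%, 10.0%, 41.4% and 2.89 points, with a median chi-square per degree of freedom of 2.21. In a held-out library the means were 66.2%, 17.7% (under 20%), 12.4% and 35.6%. A 1% minimum gave 67.3%, 19.2% (under 20%), 12.4%, 38.5% and 4.06 points, and a 2% minimum 67.2%, 18.3% (under 20%), 12.8%, 38% and 4.11 points. Loci with exactly 2 regions gave 61.2%, 58.3%, 15.6% (40% to under 60%), 30.3% and 5.10 points, a chi-square of 1.64 and 111 of 628 loci called (17.7%). Libraries 1 and 2 alone gave 71.4%, 64.5%, 11% (40% to under 60%), 41.6%, 2.10 points and 5 calls among 721 loci. Libraries 3 and 4 alone gave 66.9%, 59.9%, 19.6%, 12.0%, 34.3%, 1.62 points and 0 calls among 724 loci. Their chi-squares, with 1 degree of freedom, were 0.655 and 0.610. Thinned libraries had a median SD of 5.14 points. On counts as deposited 302 loci were called. With 1 library left out the ranges were 65.6% to 67.9%, 60.9% to 62.8%, 16.2% to 18.2%, 11.8% to 13.5%, 33.6% to 38% and 3.62 to 4.18 points. The chi-square was then 1.71 to 2.19. The calls were 113 (of 798 loci without library 2, 14.2%) to 171 (of 802 loci without library 4, 21.3%). Fewer libraries leave fewer pairs to compare, and the share called over all loci is not given for these alternatives. The difference from loci with closer ends was 6.34 to 8.25 points (8.25 without library 4, 10.6 with 500 kept reads, 2.18 when joined within 1000 bases) and that from wider ends 6.16 to 9.36. The cause of these shifts was not tested. No paired analysis was possible because all libraries belong to 1 group. Depth limits single loci: at 100 to under 300 reads the counting SD had a median of 7.33 points.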
